A study of Caenorhabditis elegans with 41 samples.

Results

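The distal genes of mnDp10, a piece of the X chromosome of Caenorhabditis elegans carried as extra copies on chromosome I by strain SP117, were described here. They were taken as all X genes from the one that starts at 15500188 (WS220) to the end of the chromosome. There were 294 such genes out of 2818 on X and 20390 in the files, running over 2.22 Mb from 15500188 to 17718641. Of these, 270 matched the RefSeq table, 250 as protein-coding genes and 20 as pseudogenes. The limit just before the first gene was a working limit inside mnDp10, since the duplicated segment also covers X genes nearer the centre, so no edge of the duplication lies there. The extra copies of the distal genes are found in SP117 and in no other strain used here.

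mRNA-seq of whole worms was used from 20 libraries. SP117 carries mnDp10 (X;I) in homozygous form, so its distal genes should be present in 4 copies, against 2 in the other strains. It also carries the X mutation unc-3(e151), and gave 2 embryo, 4 L2-L3 larval and 3 young adult libraries. In embryos it was set against 3 libraries of VC100 [unc-112(r367) V; gkDf2 X], which carries an X deletion outside the distal genes, and in larvae and young adults against 2 and 3 libraries of BC4289 [sDp10 (IV;X)], which carries a piece of chromosome IV on X. A further 3 embryo libraries came from TY1916, which carries yDp11 (X;IV), a duplicated X segment that ends before the distal genes, and the X mutations lon-2(e678) and unc-9(e101). The authors also found raised DNA coverage in TY1916 at the left tip of V and on the right arm of IV. All strains therefore differ in more than the distal copy number, and strain and copy number cannot be told apart. Whether libraries of a group came from separate cultures was not stated in the labels, so the p-values measure the spread between these libraries, which may be technical.

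In C. elegans the 2 X chromosomes of hermaphrodites are each repressed in the soma by the dosage compensation complex (DCC), a condensin-based complex that loads at recruitment elements and spreads along X. The DCC acts in embryos from early stages on and stays on X in larval and adult somatic cells. In the germ line the DCC does not act, and much of X is silenced by chromatin marks, with oogenesis as a partial exception. Adult hermaphrodites hold a large germ line, whereas larvae at L2-L3 hold few germ cells. An extra X segment on an autosome can gain copies of its genes and also recruit the DCC.

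The libraries differed in depth. Depth was estimated from the most common ratio of low FPKM values of the same genes between libraries, each value taken as a single read. Relative to the deepest library, it was 70.7% to 100% in SP117 embryos and 29.9% to 49.3% in VC100 embryos. It was 11.7% to 60.7% in SP117 larvae and 47.3% to 48.3% in BC4289 larvae. Young adults had 50.7% to 66.9% in SP117 and 57.4% to 76.8% in BC4289, and TY1916 embryos 52.1% to 76.8%. Read counts were not used here, so the absolute depth is unknown. The stage labels were checked on 17 germ line and oocyte genes, whose FPKM summed to 5641 to 5998 in SP117 young adults, 1497 to 2339 in SP117 embryos and 146 to 180 in SP117 larvae. The embryo collections did not match in these markers. The median log2 ratio of the germ line and oocyte genes was -0.54 in SP117 over VC100 embryos, and that of 8 intestinal genes was 0.49. VC100 library 1 stood apart from the other VC100 embryo libraries in distal genes such as let-2, and the embryo effect, the counts and some of the genes it moved are also given without it. Other embryo ratios are given with all libraries only, and some of these moved as far.

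Of the 294 genes, 292 had a value in each library. lin-15B (15726061 to 15731957) and lin-15A (15731900 to 15735318), the overlapping pair of synthetic multivulva genes, were marked as failed estimates in 2 libraries each and were left out. A mean of at least 1 FPKM over the libraries compared was required, which 194 genes passed in embryos, 188 in larvae, 176 in young adults and 148 at all 3 stages. Another 68 genes passed at no stage, and 3 were at 0 in all 20 libraries. A gene could pass through the strain in which it was high, so counts below describe the genes measured and not all 294.

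The distal genes as a set were higher in SP117 in embryos and in larvae, and lay close to the rest of X in young adults. Each library was summarised by a score, the median log2 difference of its distal genes from the mean of the comparison strain, minus the same median over 1297 (embryos), 1405 (larvae) or 1228 (young adults) X genes that end before 12 Mb, called baseline X genes here. The embryo scores were 0.62 and 0.52 in SP117, against -0.084, 0.047 and 0.020 in VC100. In larvae the scores were 0.27, 0.48, 0.44 and 0.77 in SP117, against -0.066 and 0.066 in BC4289. Neither pair of groups overlapped, and the SP117 larval libraries were spread over a wider range than any other group. In young adults the scores were 0.082, 0.051 and 0.031 in SP117, against -0.062, 0.050 and -0.0034 in BC4289, and the groups overlapped.

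**Figure D1:**
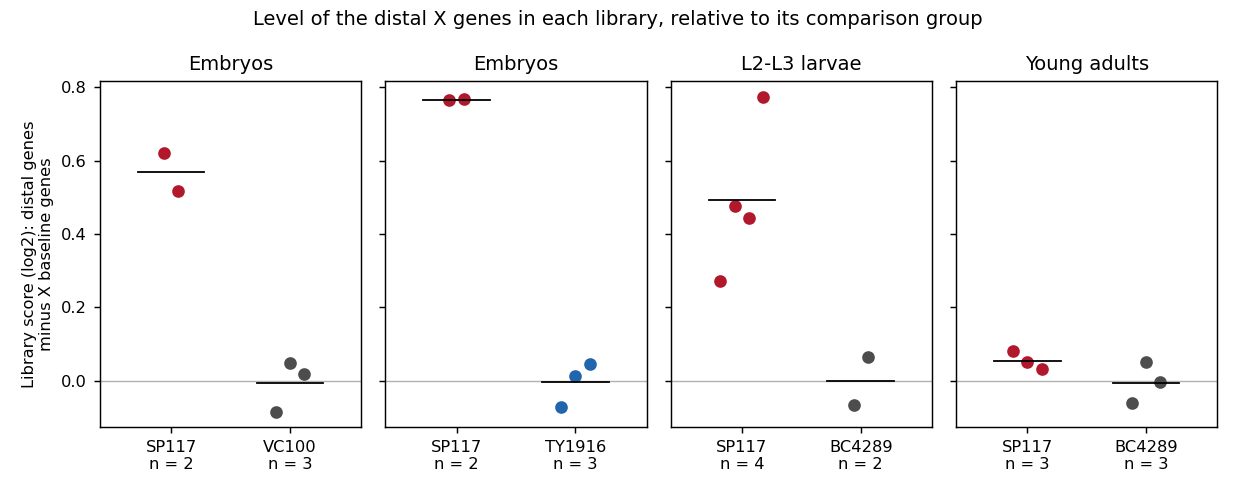
Library score of the distal X genes (log2, y axis) for each library, with SP117 left of its comparison strain in 4 panels (embryos against VC100, embryos against TY1916, L2-L3 larvae and young adults against BC4289). Points are libraries and bars are group means. SP117 lies at 0.52 to 0.62 in embryos against VC100 and at 0.27 to 0.77 in larvae, above every BC4289 or VC100 library, and at 0.031 to 0.082 in young adults.

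Taken over genes, the median log2 ratio of the distal genes minus that of the baseline X genes was 0.58 in embryos, a 1.49-fold higher level. In larvae it was 0.53, or 1.44-fold, and in young adults 0.064, or 1.05-fold. The ratio lay above the baseline median in 162 of 194 genes (83.5%) in embryos, 157 of 188 (83.5%) in larvae and 104 of 176 (59.1%) in young adults. Against the autosomes in place of baseline X, the young adult value was -0.032 and so of the other sign, while embryos had 0.73. Without VC100 library 1 the embryo value was 0.54. The young adult value moved with single libraries: it was 0.13 without BC4289 library 2, 0.028 without BC4289 library 1 and 0.093 without SP117 library 2.

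The ratios differed among genes. In embryos the interquartile range of the distal ratios was 0.76 log2 units, against 0.62 for the baseline X genes, and the lowest decile of the distal genes lay below -0.16 and the highest above 1.25 relative to the baseline median. In larvae the interquartile range was 0.49 for distal genes, against 0.47 for baseline X genes, with the outer deciles below -0.21 and above 0.93. In young adults the ranges were 0.36 for distal and 0.38 for baseline X genes. The distal genes were thus displaced as a body in embryos and larvae, with a width near that of the baseline X genes in larvae and a wider one in embryos.

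**Figure D2:**
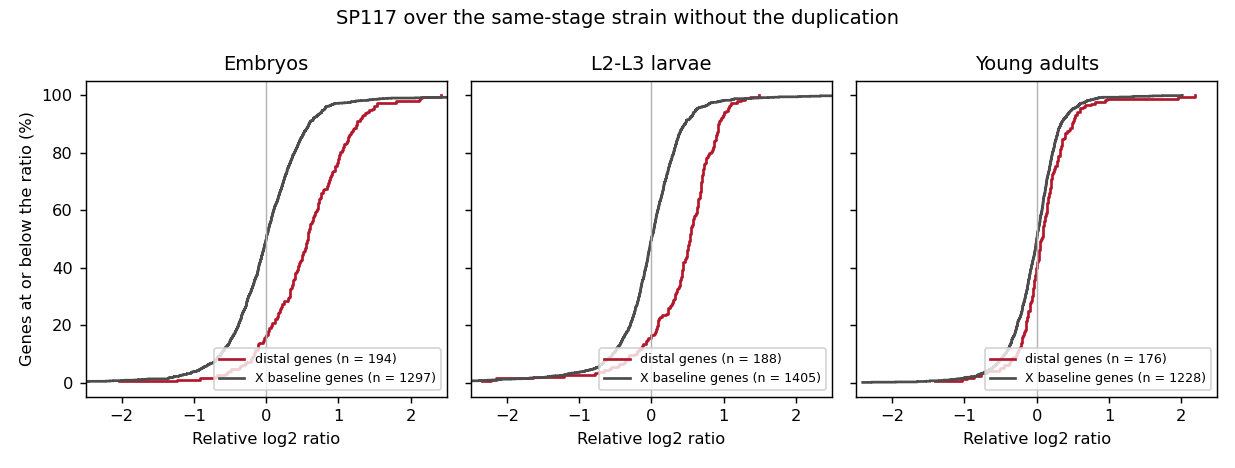
Cumulative share of genes (y axis, %) at or below a given relative log2 ratio (x axis) of SP117 over VC100 (embryos) or BC4289 (larvae, young adults), for the distal genes (red) and the baseline X genes (grey), with 0 set at the baseline median. The red curve is shifted right by 0.58 in embryos and 0.53 in larvae at its median, and by 0.064 in young adults.

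Gene by gene, no distal gene passed an adjusted p of 0.05 in limma in any of these 3 comparisons. Among all genes tested, 0.0731% passed as higher and 0.179% as lower in embryos, 0.00777% and 0.0311% in larvae, and 0.117% and 0.148% in young adults. Unadjusted, 41 of 194 distal genes had a p under 0.05 in embryos, against 542 of all 12308 genes tested, and 66 of 188 in larvae, against 908 of 12871. In young adults 16 of 176 had such a p, against 999 of all 12828 genes tested, which is near the background. The lowest adjusted p of a distal gene was 0.45 in embryos, 0.28 in larvae and 0.21 in young adults. Leaving out VC100 libraries 1, 2 or 3 gave 9, 5 or 4 calls in embryos, and leaving out BC4289 library 2 gave 7 in young adults. The shares of all genes called in these fits are not given, so these counts are not read.

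A count that does not depend on that test was therefore also made, of genes for which every SP117 library lay above every library of the comparison strain after centring on the baseline X genes. In embryos 101 of 194 distal genes (52.1%) were of this kind, against 10.7% of all genes tested and 11.6% of baseline X genes, and 2 genes (1.03%) had every SP117 library below, against 7.52% of all genes. In larvae 91 of 188 (48.4%) had all SP117 libraries above, against 9.47% of all genes and 7.83% of baseline X genes, and 5 had all below, against 9.06% of all genes. In young adults the counts were 14 of 176 (7.95%) above, against 7.4% of all genes, and 12 (6.82%) below, against 5.99%. Of the baseline X genes, 5.29% were above and 10.0% below in young adults. The young adult shares were thus near those of all genes in both directions. Without VC100 library 1 the embryo count was 132 of 194, with a background of 18.9%. Without SP117 library 2, the shallowest, the larval count was 101 of 188, with a background of 1566 of 12871 genes, and without library 4, the one with the highest score, it was 98 of 188, with a background of 16.2%. Without BC4289 library 2 the young adult count was 38 of 176 (21.6%), below its background of 35.8%.

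The overlap of the embryo and larval genes of this kind was then counted. Of 167 distal genes tested in embryos and larvae, 64 had all SP117 libraries above at both stages, against 318 of all 11003 genes tested at both (2.89%) and 10 of 1167 baseline X genes (0.857%). In 5 of them, eat-20, nipi-3, sur-7, crb-1 and fubl-3, the same held in young adults. Of 10038 genes tested at all 3 stages, 21 (0.209%) were of this kind. Across genes the embryo and larval ratios ran together only loosely, with a Spearman rho of 0.27 over 167 distal genes and 0.20 over 1167 baseline X genes. The points of this description share the SP117 strain, and genes are not independent replicates.

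Along the chromosome the displacement was spread over the whole set. In 4 steps of 0.5 Mb from the limit outwards, the median relative log2 ratio in embryos was 0.58, 0.66, 0.68 and 0.42, and 0.58 over the 17 genes beyond them. In larvae the corresponding values were 0.54, 0.64, 0.64 and 0.41, with 0.38 at the end. Young adults had 0.12, 0.10, 0.083 and 0.041, with -0.032 over 13 genes at the end. Both duplicated intervals nearer the centre had similar values. These were 0.54 in embryos, 0.64 in larvae and 0.075 in young adults for the genes from 12217175 to 13294704, and 0.56, 0.62 and 0.064 for those from 13301530 to 15500215. The Spearman rho of ratio with gene start was -0.075 in embryos, -0.16 in larvae and -0.17 in young adults. In larvae and young adults the last step had the lowest median, whereas in embryos it lay near the first. No step of the distal segment returned to the baseline in embryos or larvae.

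**Figure D3:**
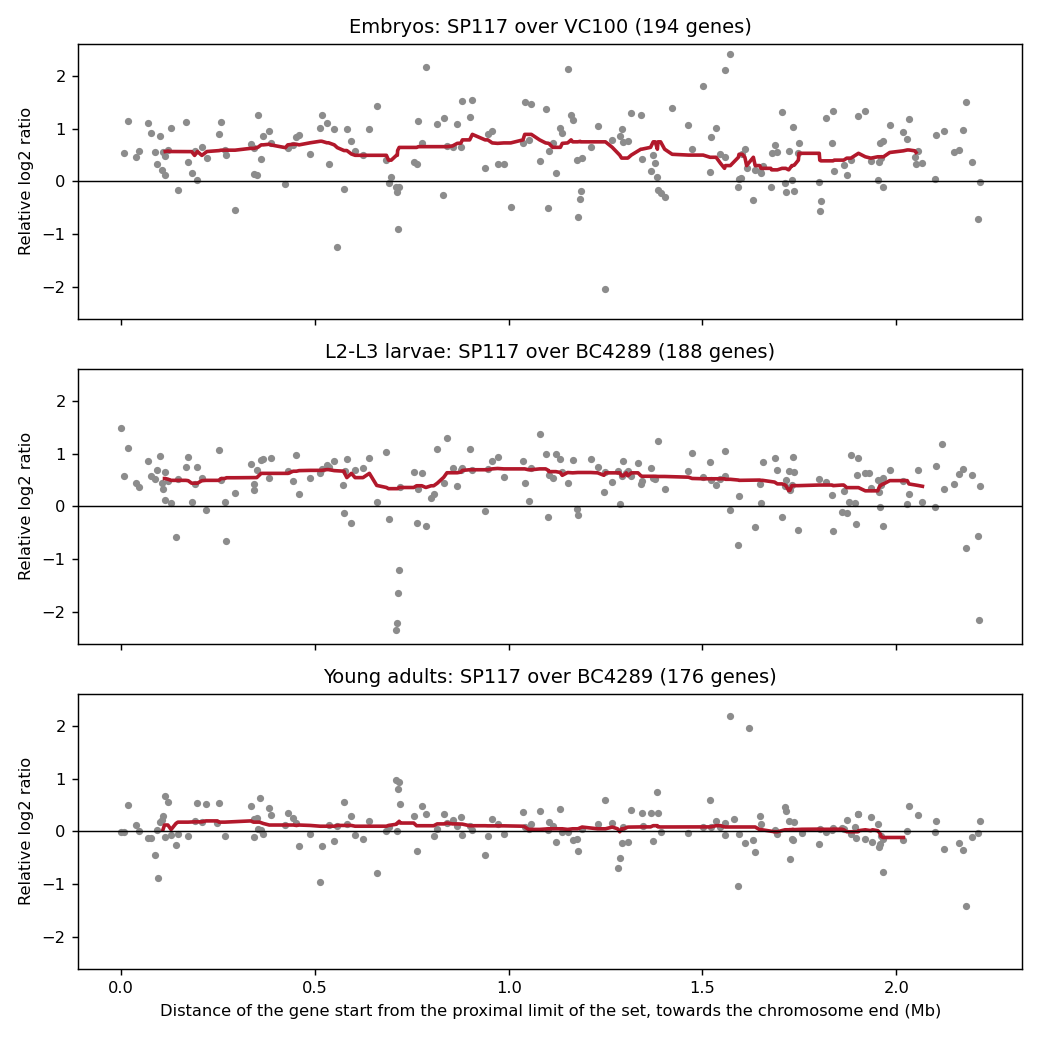
Relative log2 ratio of each distal gene (grey points, y axis, SP117 over the comparison strain with the baseline X median at 0) by the distance of its start from the proximal limit of the set towards the chromosome end (x axis, Mb), in embryos (194 genes), larvae (188) and young adults (176). The red line is a running median of 25 genes. It stays above 0 along the whole segment in embryos and larvae and lies near 0 in young adults. A cluster of points far below 0 in larvae holds R11.4, F23A7.4, F23A7.8 and F23A7.1.

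The 3 tested genes just inside the limit were tbh-1 (15500188 to 15504827), zipt-7.2 and eat-20. tbh-1, which encodes the tyramine beta-hydroxylase that makes octopamine, had a larval log2 ratio of 1.48 at 0.82 to 3.23 FPKM in SP117 and 0.51 to 0.53 FPKM in BC4289, and one of -0.03 in young adults, where it was at 47.9 to 53.8 FPKM in SP117 and 46.3 to 58.9 FPKM in BC4289. In larvae it passed the filter only through SP117. Just outside lay H13N06.2, gob-1 and suox-1, which are duplicated as well. Their ratios were 1.02, 0.57 and -0.50 in embryos and 0.81, 0.64 and 0.39 in larvae.

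At the other end, the 5 tested genes nearest the tip of X were T23E7.6, cgt-2, H11L12.1, 6R55.2 and cTel55X.1. The last of these runs from 17714890 to 17718641 and lay at 406 and 418 FPKM in SP117 embryos, against 385, 421 and 387 FPKM in VC100 embryos. Its log2 ratio was 0.04 ± 0.39 (SE) in embryos and 0.37 ± 0.24 in larvae. H11L12.1 was below in every SP117 library in embryos (4.47 and 3.01 FPKM, against 5.43, 6.71 and 5.45 FPKM in VC100) and in larvae (1.45 to 2.08 FPKM, against 2.70 and 2.78 FPKM in BC4289). T23E7.6 had ratios of 1.54 in embryos (0.98 without VC100 library 1) and -0.79 in larvae, opposite in sign. cgt-2, a ceramide glucosyltransferase gene, had 0.40 in embryos and 0.59 in larvae, whereas 6R55.2 was at 3.01 FPKM or less in every library.

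The effect was not limited to weakly or strongly expressed genes. In embryos the distal minus baseline value was 0.50 for genes at 1 to 10 FPKM (78 genes), 0.63 at 10 to 100 FPKM (88) and 0.55 above 100 FPKM (28). In larvae it was 0.50 (74 genes), 0.57 (89) and 0.39 (25). In young adults all 3 classes lay between 0.035 and 0.068. Since a pseudocount of 0.1 was added, ratios of the lowest genes are understated.

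Genes are described by function from here on, and many of them were picked after their values were seen. Genes of epithelia and membrane traffic are given first. eat-20 (15516587 to 15523957), which encodes an EGF-motif transmembrane protein related to Crumbs, had 161 and 122 FPKM in SP117 embryos, against 34.6, 78.0 and 85.1 FPKM in VC100 embryos. In larvae it had 52.6, 54.9, 51.5 and 54.6 FPKM in SP117, against 29.6 and 22.3 FPKM in BC4289. In young adults it had 11.7, 10.4 and 11.6 FPKM in SP117, against 7.96, 9.21 and 7.55 FPKM in BC4289. The groups were separate at each stage, with log2 ratios of 1.18 ± 0.45 (SE), 1.09 ± 0.18 and 0.47 ± 0.18, and its larval adjusted p of 0.28 was the lowest of the set at that stage. crb-1, the Crumbs homologue itself, had 1.29, 0.91 and 0.30. Both embryo ratios were lower without VC100 library 1, at 0.80 for eat-20 and 0.52 for crb-1.

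dyn-1 encodes dynamin, the GTPase that pinches off endocytic vesicles. It had 87.1 and 61.9 FPKM in SP117 embryos, against 19.9, 40.5 and 42.8 FPKM in VC100 embryos, and 65.7, 63.2, 60.0 and 91.8 FPKM in SP117 larvae, against 37.7 and 41.1 FPKM in BC4289 larvae. In young adults it lay at 27.3, 24.7 and 26.0 FPKM in SP117, against 28.6, 30.1 and 29.6 FPKM in BC4289. The young adult log2 ratio was -0.15 ± 0.13 (SE), and after centring the strains overlapped. Without VC100 library 1 its embryo ratio was 0.84, against 1.16 with it. zipt-7.2, a gene of the ZIP family of zinc transporters, had 290.1 and 309 FPKM in SP117 embryos, against 218, 172 and 204 FPKM in VC100 embryos. Its ratios were 0.59 in embryos, 0.57 in larvae and -0.05 in young adults.

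**Figure D4:**
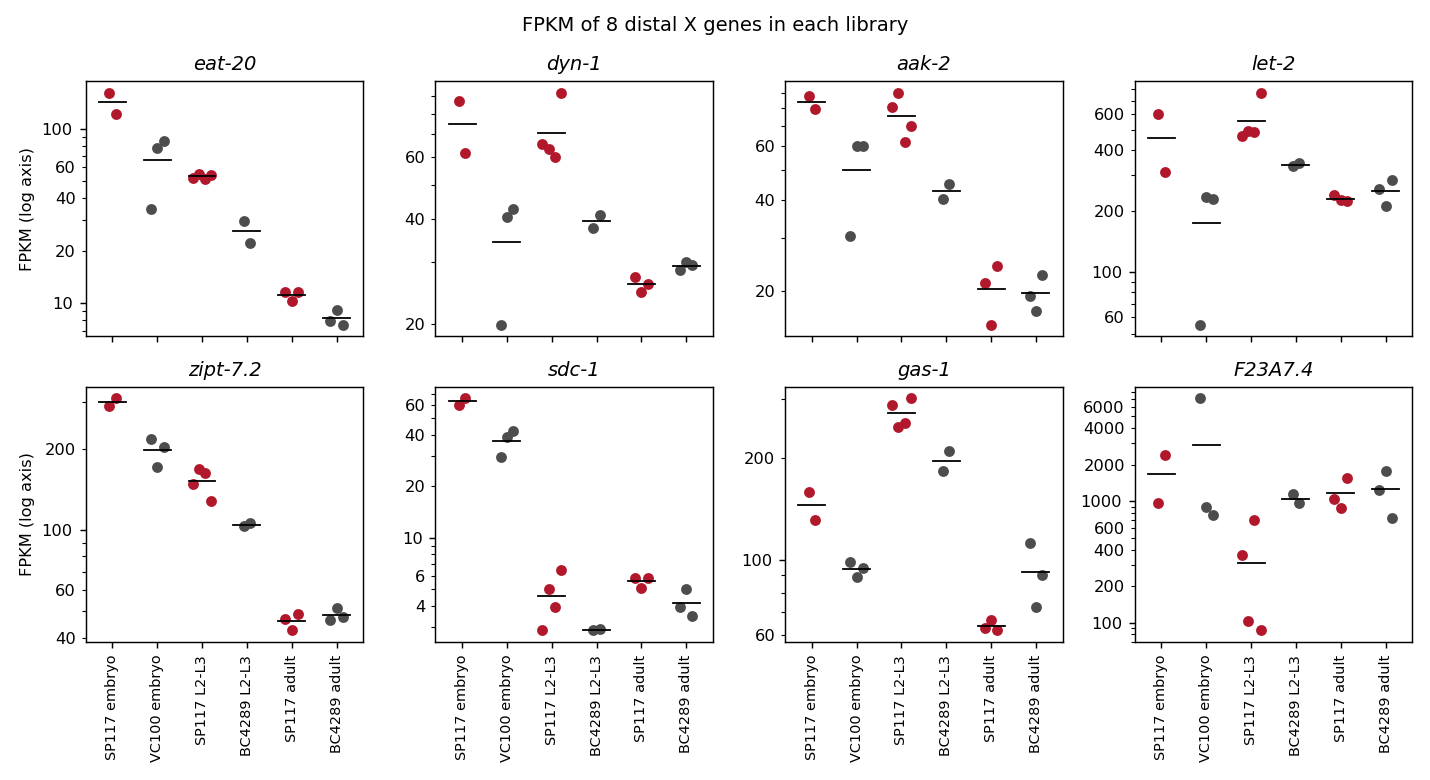
FPKM (y axis, log scale) of 8 distal genes in each library, with SP117 (red) left of its comparison strain (grey) at each stage. Points are libraries and bars are group means. eat-20 is above in every SP117 library at all 3 stages, dyn-1, aak-2, let-2 and zipt-7.2 in embryos and larvae, and gas-1 is above in embryos and larvae and below in young adults. F23A7.4 is below in every SP117 larval library.

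Several distal genes belong to energy and stress signalling. aak-2 encodes a catalytic subunit of the AMP-activated kinase. It had 80.7, 90.1, 62.0 and 70.0 FPKM in SP117 larvae, against 40.3 and 45.2 FPKM in BC4289 larvae, and 87.7 and 79.9 FPKM in SP117 embryos, against 30.4, 60.2 and 59.9 FPKM in VC100 embryos. Its log2 ratios were 0.79 in embryos (0.50 without VC100 library 1), 0.85 in larvae and 0.06 in young adults. aakg-2, a regulatory gamma subunit gene of the same kinase, had 0.24, 0.72 and 0.33. sgk-1, a serum- and glucocorticoid-inducible kinase gene, had 0.42, 0.64 and 0.26, and tps-1, a trehalose-6-phosphate synthase gene, 0.81, 0.53 and -0.17.

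gas-1, which encodes a core subunit of mitochondrial complex I, had one order of the strains in larvae and the other in young adults. In larvae it had 287, 247, 254 and 301 FPKM in SP117, against 183 and 210.0 FPKM in BC4289. In young adults it had 63.0, 66.3 and 61.8 FPKM in SP117, against 112, 72.6 and 90.3 FPKM in BC4289. The log2 ratio was 0.61 in embryos, 0.51 in larvae and -0.48 ± 0.14 (SE) in young adults. sod-3, a mitochondrial manganese superoxide dismutase gene, had 1.59, 1.79 and 1.75 FPKM in SP117 young adults, against 4.67, 3.37 and 3.38 FPKM in BC4289 young adults, a ratio of -1.07 ± 0.23 with an adjusted p of 0.22. Both genes were thus lower in each SP117 young adult library than in each BC4289 one.

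Genes of muscle and of the extracellular matrix were among the abundant members. mlc-2 and mlc-1, near-identical neighbours at 17455519 to 17456520 and 17459086 to 17460705, encode regulatory myosin light chains, and reads could be split between them uncertainly. mlc-2 had 3885, 3823, 3844 and 4477 FPKM in SP117 larvae, against 3217 and 3684 FPKM in BC4289 larvae, the highest level of the distal genes in larvae. Their larval ratios were 0.26 and -0.01, below the median of the set, and their young adult ratios were -0.32 and -0.26. In young adults mlc-2 had 1150, 1099 and 1086 FPKM in SP117, against 1442, 1242 and 1584 FPKM in BC4289. mlc-1 overlapped in FPKM and was separate only after centring. Of 7 body wall muscle marker genes, 0 had a ratio above 0 in young adults, with a median of -0.29. Whether muscle content has a part in the values of mlc-1 and mlc-2 was not tested. In whole worms, fewer cells of a type and less RNA per cell cannot be told apart.

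let-2 (16380376 to 16389297) encodes the alpha-2 chain of type IV collagen of basement membranes. It had 470.3, 498, 491 and 767 FPKM in SP117 larvae, against 333 and 346 FPKM in BC4289 larvae, with a log2 ratio of 0.72. In embryos it had 604 and 312 FPKM in SP117, against 55.2, 236 and 231 FPKM in VC100. VC100 library 1 set much of the embryo ratio of 1.58 ± 0.60 (SE), which was 0.91 without it. The same holds for the other genes with the largest mean of embryo and larval ratios among those at 5 FPKM or more at both stages. cdh-9, a cadherin gene, had 1.41 in embryos and 0.75 without that library, mbl-1, a muscleblind splicing factor gene, 1.84 and 1.22, C06G1.6 2.17 and 0.72, and F01G12.6 1.26 and 0.76. Their larval ratios were 0.99, 0.55, 0.43 and 1.07.

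Genes of the nervous system were mostly low in whole worms. Of 10 genes for channels, transmitter receptors or peptide receptors, 9 were measurable in larvae, with a median relative ratio of 0.63 and 8 of 9 above the baseline median, and 5 of 9 had all SP117 libraries above, shares near those of the whole set (83.5% and 48.4%). ser-1, a serotonin receptor gene, had 3.45, 8.22, 3.68 and 9.94 FPKM in SP117 larvae, against 2.05 and 2.39 FPKM in BC4289 larvae. mec-4, the touch receptor channel gene, had 2.69, 4.44, 2.78 and 5.33 FPKM in SP117 larvae, against 2.35 and 2.44 FPKM in BC4289 larvae. sup-10, a regulator of a muscle potassium channel, had a larval ratio of 0.03, with 1.51 to 9.04 FPKM in SP117 and 3.22 and 4.20 FPKM in BC4289. In young adults 4 of the 10 were measurable, with a median of 0.041.

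The neuropeptide genes nlp-6 and nlp-67 had all SP117 libraries above in larvae. nlp-6 had 113, 109, 82.9 and 132 FPKM in SP117, against 66.3 and 79.7 FPKM in BC4289, and nlp-67 had 36.2, 61.0, 30.4 and 70.8 FPKM in SP117, against 22.7 and 24.5 FPKM in BC4289. Their young adult ratios were -0.24 and -0.02. osm-1, an intraflagellar transport gene, had 8.77 and 4.82 FPKM in SP117 embryos, against 1.25, 2.51 and 3.13 FPKM in VC100 embryos. osm-11, a secreted Notch co-ligand gene, had 959, 997, 852 and 1085 FPKM in SP117 larvae, against 632 and 666 FPKM in BC4289 larvae. Both chemoreceptor genes of the set, srg-64 and srxa-9, were too low to be measured at any stage.

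Among genes that act on transcription or RNA, the nuclear receptor genes nhr-1, nhr-28 and nhr-48 had all SP117 libraries above in embryos and larvae. Their ratios were 0.97, 0.70 and 0.69 in embryos and 0.48, 0.72 and 0.54 in larvae, and -0.18, 0.19 and 0.15 in young adults. hda-4, a class II histone deacetylase gene, had 1.09, 0.73 and 0.12 at the 3 stages, and ain-1, a GW182-type partner of Argonaute in miRNA silencing, 0.77, 0.53 and 0.08. Without VC100 library 1 their embryo ratios were 0.59 and 0.46. hlh-28 and hlh-29 are near-identical copies whose reads could be split uncertainly, and were measurable in embryos only, at 0.38 and 0.51. Members of these gene groups in young adults lay on both sides of 0.

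sdc-1 (16275696 to 16282375), which encodes a zinc finger protein that works with the DCC and in sex determination, is itself duplicated. It had 60.2 and 65.6 FPKM in SP117 embryos, against 29.7, 38.7 and 42.5 FPKM in VC100 embryos, and 5.78, 5.10 and 5.85 FPKM in SP117 young adults, against 3.91, 5.03 and 3.50 FPKM in BC4289 young adults. The log2 ratios were 0.77 ± 0.38 (SE) in embryos, 0.63 ± 0.33 in larvae and 0.46 ± 0.23 in young adults.

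A pair of neighbouring metabolic genes had another order of the stages. The acyl-CoA dehydrogenase genes acdh-10 and acdh-7 had ratios of 0.01 and -0.16 in embryos, 0.39 and 0.49 in larvae, and 0.43 and 0.36 in young adults, where the strains overlapped in FPKM and all SP117 libraries lay above only after centring. acox-1.6, an acyl-CoA oxidase gene of the same segment, had 0.75, 0.79 and 0.46. acdh-10 had 81.8, 55.3 and 80.1 FPKM in SP117 young adults, against 51.7, 50.8 and 60.1 FPKM in BC4289 young adults. In larvae SP117 library 4 stood below both BC4289 libraries, at 157 FPKM against 225 and 239 FPKM, with 382, 339 and 368 FPKM in the other 3. The 171 distal genes with no name beyond the sequence name had medians of 0.52 in embryos (91 genes), 0.46 in larvae (84) and 0.079 in young adults (88), near those of the set.

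A group of 4 neighbouring small genes ran against the rest in larvae. R11.4 (16210248 to 16210578), F23A7.4 (16212534 to 16213000), F23A7.8 (16213301 to 16213527) and F23A7.1 (16217320 to 16217594) had larval log2 ratios of -2.35, -2.22, -1.64 and -1.22. They were singled out after their values were seen, and R11.4 passed the larval filter only through BC4289, with 3.26 and 1.69 FPKM there and 0.92 FPKM or less in SP117. F23A7.4 had 358, 104, 700.2 and 86.4 FPKM in SP117 larvae, against 1138 and 961 FPKM in BC4289 larvae. F23A7.8 had 74.3, 34.0, 299.8 and 20.4 FPKM in SP117 larvae, against 215 and 188 FPKM in BC4289 larvae, and so overlapped. The SP117 larvae were spread over a wide range in both genes, with adjusted p of 0.65 and 0.81.

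The same genes varied widely among embryo libraries of a single strain. F23A7.8 had 915 and 4469 FPKM in SP117 embryos, against 16131, 1895 and 1593 FPKM in VC100 embryos. R11.4 had 1060 and 1171 FPKM in SP117 embryos, against 2083, 891 and 834 FPKM in VC100 embryos, yet at most 3.26 FPKM in any larval library. Their embryo ratios were -0.86 and -0.06. VC100 library 1 was the highest in both, and without it the embryo ratio of F23A7.8 was 0.24. F59C12.4 was another strongly variable small gene, with 486 and 1385 FPKM in SP117 embryos, against 2683, 633 and 837 FPKM in VC100 embryos, and had the third lowest mean of embryo and larval ratios among genes at 5 FPKM or more at both stages.

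Some other distal genes lay near or below the baseline at some stages and not at others. serp-1.1 had 1434, 851, 1201 and 1366 FPKM in SP117 larvae, against 974 and 1006 FPKM in BC4289 larvae, with ratios of 0.19 in embryos, 0.31 in larvae and -0.13 in young adults. F22H10.3 had 1218, 839, 1096 and 956 FPKM in SP117 larvae, against 924 and 1275 FPKM in BC4289 larvae, and ratios of 0.45, -0.05 and -0.17. Without VC100 library 1 its embryo ratio was 1.05. slc-25A21 had 0.02, -0.24 and 0.06, and nssp-90 -0.10, -0.14 and 0.53. C10E2.4, which passed the embryo filter only through VC100, had 0.63 and 0.73 FPKM in SP117, against 2.96, 4.20 and 2.08 FPKM in VC100.

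The difference between larvae and young adults was tested gene by gene as an interaction of strain and stage in BC4289 and SP117. The median of the difference, young adults minus larvae and relative to baseline X, was -0.39 over 196 distal genes, and 153 of them lay below the baseline median. In limma 0 distal genes passed an adjusted p of 0.05, against 0.0218% of all genes passing as higher and 0.0% as lower. Unadjusted, 37 distal genes had a p under 0.05, of which 35 were in the lower direction, against 872 of all 13741 genes tested with a p under 0.05, and the lowest adjusted p was 0.35, that of gas-1. The spread differed between stages, and this test pools it.

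Distal genes were split into 4 classes of nearly equal size by their level in young adults over larvae in BC4289, from the most larval to the most adult. The young adult effect was 0.13, 0.044, 0.082 and 0.032 over the 4 classes, while the larval effect was 0.44, 0.49, 0.54 and 0.68. Against baseline X genes of the same class, the young adult values were 0.18, 0.090, 0.11 and -0.035 and the larval ones 0.47, 0.50, 0.55 and 0.59. The BC4289 libraries that set the classes also enter both effects, so the order of the classes is not read. In each class the young adult value was below the larval one. The germ line and oocyte genes had a median ratio of 0.16 in young adults, with 16 of 17 above 0, and neurons had -0.32 over 6 genes. Of the other markers, 7 hypodermal genes had 0.28, 8 intestinal genes -0.015, 7 sperm genes -0.38 and 7 body wall muscle genes -0.29. Of the 7 hypodermal genes, 5 had a ratio above 0. Their summed FPKM nevertheless was lower in SP117, at 2380 to 2538, against 2636 to 3011 in BC4289. The part of cell composition in the young adult values was not tested.

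A copy number difference elsewhere was set beside the young adult value. BC4289 carries a duplicated piece of chromosome IV, and an interval was taken from the larval libraries alone, as the longest run of chromosome IV genes with a running median over 25 genes at least 0.25 log2 units higher in BC4289. This interval ran from 11820482 to 12141036. In young adults its 61 genes were 0.47 log2 units higher in BC4289 than in SP117 relative to the rest of chromosome IV, with 58 of the 61 higher. No value here tests whether the SP117 young adults still carried mnDp10, since DNA-seq was not analysed here. Among the distal genes the highest young adult ratios were those of C30G4.5, 2.16, and K09E3.4, 1.92, both at 2.96 FPKM or less in each young adult library.

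The 14 young adult genes above in every SP117 library, a share of 7.95% against 7.4% of all genes tested, were of mixed kinds. Besides eat-20, crb-1, nipi-3, sur-7 and fubl-3 they were F53H4.2, K09E9.3, K09E9.1, gmeb-2, F23A7.1, aakg-2, C08A9.10, acdh-10 and acdh-7. F53H4.2 had the lowest adjusted p of the set in young adults, 0.21. It was at or under 0.47 FPKM in each embryo and larval library and at 132, 103 and 156 FPKM in SP117 young adults, against 97.7, 77.9 and 82.6 FPKM in BC4289 young adults. nipi-3, a Tribbles-family gene of the innate immune response, had 13.0, 10.5 and 13.8 FPKM in SP117, against 11.4, 8.55 and 11.7 FPKM in BC4289. Its groups overlapped in FPKM and were separate only after centring on the baseline X genes. The same held for crb-1, with 1.51, 1.22 and 1.38 FPKM in SP117, against 1.29, 0.87 and 1.22 FPKM in BC4289.

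A second embryo comparison came from TY1916, which has the distal genes in the normal number. It shares the SP117 libraries with the first, so the values are given side by side only. The library scores were 0.77 and 0.77 in SP117, against -0.071, 0.012 and 0.045 in TY1916, and the median effect was 0.74, or 1.67-fold, against 0.58 with VC100. Relative to autosomal genes it was 0.34. The ratio lay above the baseline median in 179 of 205 genes (87.3%). In limma 29 distal genes (14.1%) rose and 2 (0.976%) fell in SP117, against 0.945% and 3.64% of all genes and 0.352% and 3.59% of baseline X genes. All SP117 libraries were above in 130 of 205 genes (63.4%), against 40.3% of all genes and 28.9% of baseline X genes, and all were below in 6 (2.93%), against 17.5% of all genes. Most of the 29 genes that rose in limma were also called lower in TY1916 than in VC100, in the comparison given below. Most of the 29, but not all, were above in every SP117 library when set against VC100. The share of 14.1% is thus not read as a rise in SP117 alone.

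The 29 calls depended on single libraries. Both directions together, 31 genes were called, and 1 without SP117 library 2, 66 without SP117 library 1, and 17, 14 and 15 without TY1916 libraries 1, 2 and 3. The shares of all genes called with a library left out are not given, so these counts have no background beside them. Without centring, 19 rose and 2 fell, against 0.438% and 6.31% of all genes.

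The genes with the largest rises were mdt-1.2, ZK662.5, R11.4, C33E10.1 and C03H12.1, with log2 ratios of 3.32, 2.32, 1.87, 1.76 and 1.68. mdt-1.2 (17151446 to 17154513), a Mediator subunit gene, had 24.7 and 26.8 FPKM in SP117, against 4.0, 3.33 and 3.67 FPKM in TY1916, while VC100 had 17.1, 25.8 and 24.5 FPKM. Its ratio over VC100 was 0.21, so the TY1916 libraries were the ones that stood apart. The same held for R11.4 with -0.06 and C33E10.1 with -0.33 over VC100. The smallest rises were those of F10D7.3, nhr-28 and F31A3.5, with 1.28, 1.26 and 1.23, and over VC100 they had 0.17, 0.70 and 0.62. eat-20 with 1.6, sdc-1 with 1.61 and aak-2 with 1.29 were among the 29.

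The 2 genes that fell were F22H10.2 and nssp-90, with -2.07 and -1.58. F22H10.2 had 3.57 and 1.83 FPKM in SP117, against 23.6, 14.8 and 12 FPKM in TY1916, and nssp-90 had 9.71 and 4.20 FPKM in SP117, against 28.3, 22.5 and 35 FPKM in TY1916. Both had larval levels of at least 47.4 FPKM in every library of SP117 and BC4289. Of the markers, 7 of 7 body wall muscle genes were lower in SP117 than in TY1916, with a median of -0.80. The germ line and oocyte genes were higher in 17 of 17, with a median of 1.12. On this scale, centred on the baseline X genes, the median over all 13227 genes tested was itself 0.43. The part of embryo age in these calls was not tested.

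TY1916 was also set against VC100, as the same measure between 2 strains without an extra distal copy. The library scores were -0.24, -0.082 and -0.12 in TY1916, against -0.11, 0.068 and 0.020 in VC100, and the median effect was -0.24, or 0.844-fold. Relative to autosomal genes it was 0.37, of the other sign, and by level it was -0.32 at 1 to 10 FPKM, 0.13 at 10 to 100 FPKM and -0.078 above 100 FPKM. The value between these strains thus has no fixed direction, and the SP117 embryo values are to be read beside shifts of this size. Before centring, the baseline X genes were 0.64 log2 units higher in TY1916 than in VC100 and the median over all genes was 0.11 higher, so calls here depend on the scale. In limma 16 of 200 distal genes (8.0%) rose and 34 (17%) fell, against 10.4% and 33.8% of all genes, whereas without centring 41 rose and 9 fell, against 19.1% and 8.76% of all genes.

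Genes lower in TY1916 than in VC100 were led by mdt-1.2, C33E10.1, T25D1.3, R11.4 and fbxa-120, with log2 ratios of -3.09, -2.06, -1.92, -1.91 and -1.86. The smallest calls in that direction were fubl-3, zipt-7.2 and C11G6.3, with -0.78, -0.74 and -0.68, and these 3 did not pass without centring. Genes higher in TY1916 were led by K09E9.7, C30G4.4, T25G12.3, nssp-90 and F22H10.2, with 2.69, 2.58, 1.67, 1.5 and 1.46, and ended with T23E7.2, C30F2.5 and K09A9.6, with 0.78, 0.73 and 0.67. K09E9.7 passed the filter only through TY1916, with a mean of 1.78 FPKM there and 0.23 FPKM in VC100. T25D1.3 passed it only through VC100, with a mean of 2.18 FPKM there and 0.82 FPKM in TY1916. C30G4.4 had 11.2, 10.3 and 11.8 FPKM in TY1916, against 0.20, 2.26 and 2.96 FPKM in VC100. The germ line and oocyte markers had a median of -1.79 in TY1916 over VC100, with 16 of 17 called lower, and body wall muscle markers 0.94, with 4 of 7 called higher. The median over all genes tested was -0.42 on this centred scale. The number of distal calls ran from 1 to 76 as single libraries were left out, and the shares of all genes called in those fits are not given.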

How the data were processed

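mRNA-seq of whole worms was analysed from 20 libraries of SP117, TY1916, VC100 and BC4289. The authors aligned reads with Hisat2 2.2.1 to WS220 and deposited, per library, FPKM values from Cufflinks 2.2.1 and TPM values, 20390 genes each, in which FPKM is scaled to mapped reads and gene length and TPM to a fixed total. File starts count from 0 and are given here counted from 1. The authors tested read counts with DESeq2, but the files used here hold FPKM, so limma on log values was used. DNA-seq, strain OP37 and counts were not analysed here.

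Of the genes, 50 with a failed estimate in 1 library or more and 12 of the mitochondrial genome were not used, and 20328 stayed. Gene names came from the RefSeq table of assembly WBcel235, used for names only, in which 19880 identifiers matched. For each comparison, genes with a mean of at least 1 FPKM over its libraries were taken, log2(FPKM + 0.1) was computed, and each library was centred on the median of the X genes that end before 12 Mb. limma 3.58.1 in R 4.3.3 (lmFit, eBayes with trend) was fitted to the libraries of the compared groups only, with Benjamini-Hochberg adjustment over all genes tested and a two-sided threshold of 0.05. Fold changes are on the log2(FPKM + 0.1) scale, which understates the change of low genes. Summaries used Python 3.11.15 with pandas 2.3.3 and numpy 2.4.6, and plots matplotlib 3.10.9. The procedure was tested on simulated data with known changes. There it called no changed gene in the embryo design against VC100 and, at a change of the size seen, no distal gene in the larval design, so an absence of calls in these designs does not show an absence of change. Relative depth was read from the most common ratio of low FPKM values of the same genes between libraries. The absolute depth is unknown, so no counting intervals are given.

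The genes named by rule were those past 0.05 (where more than 10 passed in a direction, the 5 largest and 3 smallest changes), the 6 with the highest mean FPKM, the 5 highest and 5 lowest by mean embryo and larval ratio at 5 FPKM or more, the 5 nearest the chromosome end, the 3 just inside the limit, and well known genes of the segment. The members, lists and tests were chosen with earlier results of these data known, and further genes were picked after their values were seen. Alternatives were the pseudocount, the filter, TPM, the centring, the fit over all libraries, the replicate number as a block, another comparison strain and leaving out each library in turn.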

Additional observations from a re-analysis of the deposited data

Results flagged for a closer look

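In SP117 L2-L3 larvae, 5 distal genes had 1 library far from the other 3, by the gap to the nearest library divided by the whole range, with 0.829 as the critical value for 4 libraries. The ratio was 0.938 for F31A3.5, 0.837 for C30F2.5, 0.849 for C11G6.3, 0.906 for mlc-2 and 0.906 for let-2. In each of them library 4 was the high one. F31A3.5 had 5.86, 5.58, 5.84 and 10.1 FPKM, C30F2.5 3.84, 3.56, 5.03 and 12.6 FPKM, and C11G6.3 14.5, 14, 11.6 and 30.8 FPKM. mlc-2 had 3885, 3823, 3844 and 4477 FPKM, and let-2 470.3, 498, 491 and 767 FPKM. Library 4 also had the highest score of the group, 0.77, and without it the larval effect was 0.44. Only groups of 4 libraries could be examined, 44 in all, and chance flags about 1 in 20 such groups.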

How the results depend on the processing

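In embryos against VC100 the distal effect of 0.58 was 0.73 relative to autosomal genes and 0.74 with TY1916 as the comparison strain. In young adults the effect of 0.064 was -0.032 relative to autosomal genes and 0.11 as a mean over genes. In TY1916 against VC100 it was -0.16 with a pseudocount of 1 and -0.12 at a mean of at least 5 FPKM, against -0.24, and 0.37 relative to autosomal genes, a setting chosen after seeing the data. For SP117 against TY1916, a comparison whose alternatives were chosen after seeing the data, it was 0.34 relative to autosomal genes, 0.62 with a pseudocount of 1, 0.67 at a mean of at least 5 FPKM, 0.73 with no filter, 0.75 with a pseudocount of 0.01, 0.75 with TPM, 0.76 with the baseline X genes between 7.5 and 8.5 Mb left out and 0.74 with the replicate block. The number of distal genes called in embryos was 1 with no filter, 1 with the replicate block, 4 in a fit over all 17 libraries of SP117, VC100 and BC4289 and 31 with TY1916 as the comparison strain, against 0. It was 1 with the replicate block in TY1916 against VC100, against 50, and 19 with a pseudocount of 1, 12 with no filter and 130 with the replicate block in SP117 against TY1916, against 31. Leaving out single libraries, the effect ran over 0.52 to 0.61 in embryos, 0.44 to 0.57 in larvae, 0.028 to 0.13 in young adults, -0.28 to -0.14 in TY1916 against VC100 and 0.67 to 0.77 in SP117 against TY1916. The calls ran over 0 to 9, 0 to 0, 0 to 7, 1 to 76 and 1 to 66 in the same order, and over 0 to 0 for the difference between stages. The cause of these moves was not tested, and the shares of all genes called in these fits are not given here. With the replicate number as a block the effect was 0.52 in embryos, 0.46 in larvae, 0.064 in young adults and -0.24 in TY1916 against VC100. The block was fitted only to libraries whose number occurs in both groups. This left out VC100 embryo library 3, SP117 larval libraries 3 and 4 and, for SP117 against TY1916, TY1916 library 3. In these comparisons the block values and calls thus also rest on fewer libraries, and the part of the block itself cannot be told apart. Deviations of libraries with the same number correlated at -0.12 and -0.065 in embryos and -0.046 and 0.0092 in larvae. In young adults these values were 0.041, 0.23 and 0.058, and in TY1916 against VC100 -0.20, 0.089 and -0.20. Libraries with different numbers ran from -0.21 to 0.20 in young adults and from -0.20 to 0.255 in TY1916 against VC100. In a group of 2 libraries the deviations mirror each other, so the embryo and larval values cannot decide on pairing. The numbers were not taken to pair the libraries. For SP117 against TY1916, where the block gave 130 calls, these correlations were not computed. Of 2170 values of single named genes under all alternatives, 2043 kept their side of the threshold (95 of the 2170 had another sign than the main value, as F23A7.8 in embryos without VC100 library 1, and none of these passed the threshold), 117 no longer passed it, 10 newly passed it and 0 changed sign as a call. The shallowest library, SP117 larval library 2, had 11.7% of the depth of the deepest, which limits the lowest genes.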
